A study of Drosophila melanogaster with 15 samples.

Results

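Small nucleolar RNA (snoRNA) genes were described here across 3 lists of R-loop peaks. The genes taken were all those of the dm6 annotation whose symbol starts with snoRNA: or scaRNA:, which gave 274 of 17796 genes, 257 with the first prefix and 17 with the second. R-loops are RNA:DNA hybrids with a displaced DNA strand, and they were mapped by ssDRIP-seq, in which hybrids are recovered with the S9.6 antibody and the DNA is sequenced by strand. The samples were S2 cells, a Drosophila cell line of embryonic origin, and whole Oregon R embryos of 2 ages, 2–3 h (early embryos) and 14–16 h (late embryos). No transgene or drug was given in the labels, and each sample type had 2 ssDRIP samples, 2 inputs and 1 ssDRIP sample treated with RNase H1, which digests the RNA of a hybrid. The 2 ssDRIP samples of a sample type were pooled in its list, which gives the position, width and strand of each peak and no height. No value below therefore has a replicate error and no test could be run, and the 95% Wilson intervals cover counting error only. Whole embryos mix many cell types, and a peak called in few cells or in many cannot be told apart in these lists.

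snoRNAs are short non-coding RNAs of the nucleolus that guide the chemical modification of other RNAs by base pairing. Box C/D snoRNAs guide 2'-O-methylation and box H/ACA snoRNAs guide pseudouridylation, mostly of ribosomal RNA, while scaRNAs act on spliceosomal RNAs in Cajal bodies. In flies most of them lie in introns of host genes and are released from the spliced intron, and U3, a snoRNA needed for processing of the ribosomal RNA precursor, is made from genes of its own. A snoRNA gene can therefore lie under a peak through transcription of its host, of its own unit or of a gene on the other strand.

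The sequences of the genes on which the results turn are given first, 5′ to 3′ on the strand of the gene, from the RefSeq genome of dm6. Capitals mark a C box (TGATGA) starting within the first 40 bases and the last D box (CTGA) starting within the last 40. Box C/D snoRNAs are named after these motifs. The genes were chosen after their values were seen, because 0 genes carried a peak on their strand in all 3 lists. The first 3 are those with a peak on their own strand in S2 cells and in early embryos, at chr2L:21034775-21034923, chr3R:19586196-19586263 and chr2L:6917210-6917310.
snoRNA:Me28S-C2789: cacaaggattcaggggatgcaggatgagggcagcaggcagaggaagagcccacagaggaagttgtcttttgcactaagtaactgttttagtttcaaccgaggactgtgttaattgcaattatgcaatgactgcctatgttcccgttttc
snoRNA:Me18S-A1374: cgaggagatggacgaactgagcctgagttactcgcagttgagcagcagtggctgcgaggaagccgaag
snoRNA:nop5-x16-a: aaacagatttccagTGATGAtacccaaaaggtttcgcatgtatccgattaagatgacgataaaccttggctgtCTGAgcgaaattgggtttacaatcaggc
The next 2 are copies in the non-coding host Uhg3 under a peak of late embryos, at chr2L:20647817-20647891 and chr2L:20648051-20648125, and a copy named snoRNA:Me28S-C2645c has the same letters as the second.
snoRNA:Me28S-C2645a: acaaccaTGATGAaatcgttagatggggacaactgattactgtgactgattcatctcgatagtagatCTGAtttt
snoRNA:Me28S-C2645b: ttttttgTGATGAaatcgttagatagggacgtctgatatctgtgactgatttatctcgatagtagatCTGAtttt
The last is 1 of the 3 U3 genes, all of which met a peak on their own strand in late embryos, at chrX:10348125-10348337.
snoRNA:U3:9B: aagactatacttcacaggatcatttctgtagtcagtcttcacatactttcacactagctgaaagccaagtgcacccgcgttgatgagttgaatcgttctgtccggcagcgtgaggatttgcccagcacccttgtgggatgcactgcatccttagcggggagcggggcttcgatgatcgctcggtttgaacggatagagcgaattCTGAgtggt

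The 274 genes were 46 to 511 bp long, with a median of 134 bp. By symbol, 106 were pseudouridine guides (Psi), 78 methylation guides (Me), 18 numbered genes such as U3, 16 orphan box C/D genes, 9 orphan box H/ACA genes, 17 scaRNA genes and 30 carried other names. The labels were checked against the sequences. The letters TGATGA within the first 25 bases and CTGA within the last 25, read on the gene's strand, were both held by 60 of the 78 methylation guides (76.9%) and by 0 of the 106 pseudouridine guides. The letters ACA within the last 8 bases were held by 103 pseudouridine guides (97.2%) and by 4 methylation guides. For transfer RNA genes the shares were 0% for both boxes and 8.97% for ACA, and for microRNA genes 0% and 16.2%. A host, that is a gene on the same strand containing the snoRNA gene whole, was found for 251 genes, in 96 hosts, and 228 of them lay in introns of every transcript of the host there. The remaining 23 had no host.

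snoRNA genes met few peaks in any sample type. A peak on the strand of the gene overlapped 9 of 274 genes in S2 cells (3.28%, 95% interval 1.74 to 6.12), 3 in early embryos (1.09%, 0.373 to 3.17) and 7 in late embryos (2.55%, 1.24 to 5.18). Over all 17796 genes, with a median length of 1695.5 bp, the shares were 26.9%, 23.4% and 21.8%. A peak on the other strand overlapped 16 genes in S2 cells (5.84%, 3.63 to 9.27), 7 in early embryos (2.55%, 1.24 to 5.18) and 9 in late embryos (3.28%, 1.74 to 6.12), against 18.7%, 17% and 19.6% of all genes. The other strand was thus met by more snoRNA genes than their own in every list, the reverse of the order over all genes. Transfer RNA genes had the same order as snoRNA genes (5, 4 and 29 of 290 on their own strand, 13, 22 and 39 on the other). MicroRNA genes had it in S2 cells only (14, 20 and 15 of 260 on their own strand, 15, 6 and 10 on the other). The 2039 other genes of 46 to 511 bp had it in no list (188, 188 and 197 on their own strand, 136, 137 and 162 on the other). For snoRNA genes the intervals of the 2 strands overlapped in each list, and the intervals of the sample types overlapped as well. Some members share a peak or a host, so they are not independent.

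The length of a gene enters such counts, so bases were counted too. Of the 33161 bases of snoRNA genes, 2.25% lay under a peak of their strand in S2 cells, 0.715% in early embryos and 2.03% in late embryos. Over the bases of all genes the shares were 5.59%, 4.43% and 5.06%, so by bases as by genes the snoRNA values were the lower in each list. On the other strand the snoRNA shares were 4.67%, 2.40% and 2.29%, against 4.71%, 3.51% and 4.62% of the bases of all genes. In S2 cells the other strand of snoRNA genes therefore lay under peaks about as often as that of genes at large.

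Transfer RNA and microRNA genes, the most alike classes by length, were set beside them. A peak on the strand of the gene was met by 1.72% of 290 transfer RNA genes in S2 cells, 1.38% in early embryos and 10% in late embryos (95% interval of the last 7.05 to 14.0). The snoRNA share in late embryos, at most 5.18% by its interval, lay below that last value. Of 260 microRNA genes, 5.38%, 7.69% and 5.77% met such a peak. In early embryos the microRNA interval (5.03 to 11.6) and the snoRNA interval (0.373 to 3.17) did not overlap. The 2039 other genes of 46 to 511 bp, whose median length of 322 bp was greater, gave 9.22%, 9.22% and 9.66%. The lists pool replicates, so these differences were not tested.

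**Figure D1:**
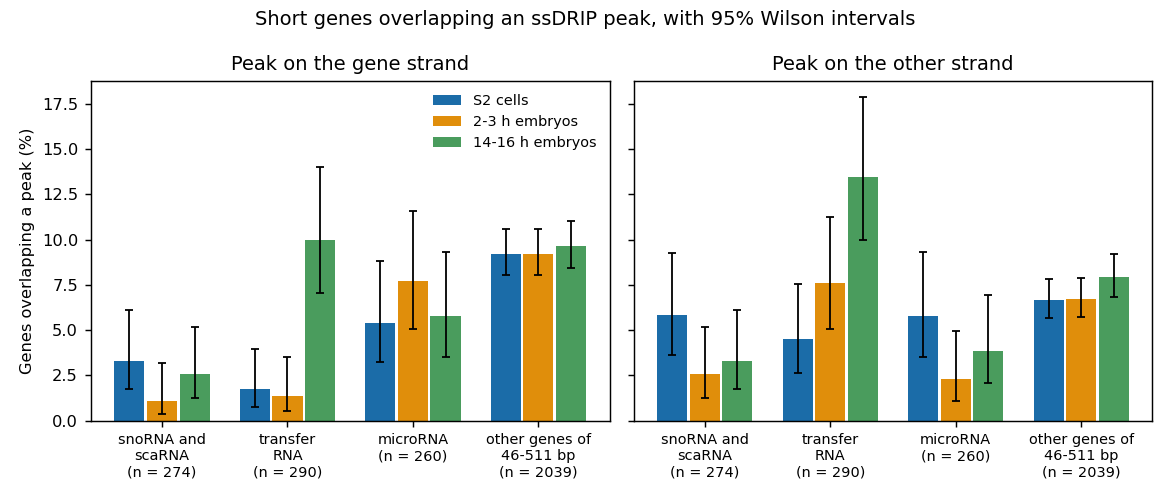
Bars give the percentage of genes that overlapped a peak on their own strand (left) and on the other strand (right) by at least 1 bp in each list, for 4 classes of short genes, and lines give 95% Wilson intervals. snoRNA and scaRNA genes stayed between 1.09% and 5.84%, and the highest bars are those of transfer RNA genes in late embryos, at 10% and 13.4%.

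Same-strand peaks also lay farther from snoRNA genes than from genes in general, which are longer. The median distance to the nearest peak on the same strand was 4061 bp in S2 cells, 7030 bp in early embryos and 6933 bp in late embryos, against 2834, 3739.5 and 3480.5 bp over all genes. Within 1 kb such a peak was found for 18.6%, 10.9% and 10.2% of snoRNA genes and for 36.2%, 31.5% and 31.9% of all genes. Among transfer RNA genes the shares were 20.3%, 16.9% and 28.97%, and among microRNA genes 20%, 22.7% and 24.6%, so in S2 cells the snoRNA share was close to both. Around the centres of the snoRNA genes in S2 cells, the share under a same-strand peak was 2.45% within 100 bp, 5.97% from 1 to 3 kb upstream and 5.47% from 1 to 3 kb downstream. In early embryos these shares were 0.892%, 3.15% and 2.39%, and in late embryos 1.99%, 3.17% and 2.93%. By this measure the snoRNA genes had less same-strand cover than the sequence 1 to 3 kb away on either side, in each list. Each snoRNA gene was entered separately, so 1 peak near several genes of a host was counted at several distances. The shares are therefore not counts of distinct peaks. In late embryos the lowest bin, 0.985%, was not at the genes but 300 to 400 bp downstream of their centres. On the other strand the share within 100 bp in S2 cells, 4.92%, lay between the upstream 6.61% and the downstream 3.91%. In early embryos it was 1.72%, below 4.66% and 4.28%, and in late embryos 2.21%, below 3.71% and 3.50%.

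**Figure D2:**
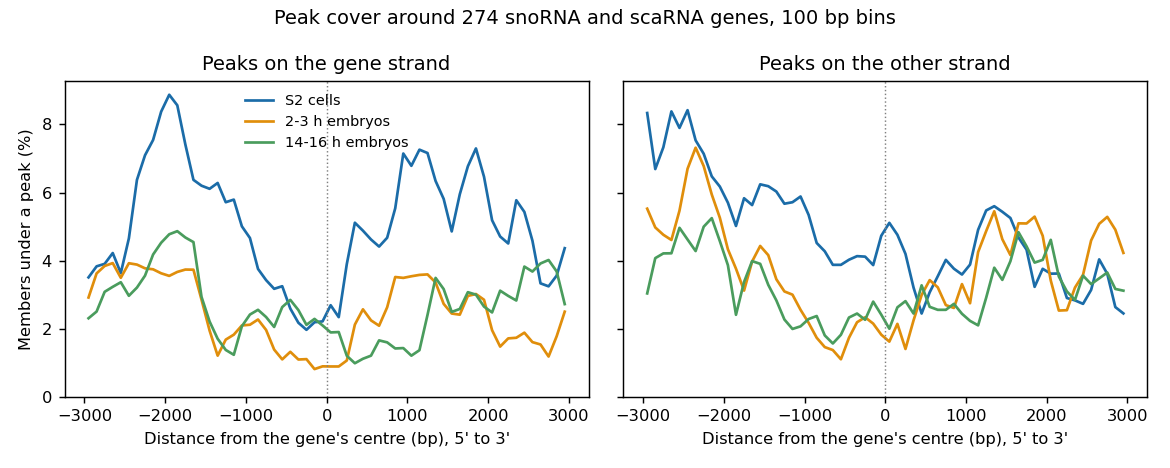
Lines give the percentage of the 274 genes under a peak in 100 bp bins against distance from the gene's centre, in bp along the gene's strand, for peaks on the gene strand (left) and on the other strand (right). In S2 cells the same-strand line falls from 8.87% near 2 kb upstream to 1.97% just upstream of the centre. Genes that share a host each enter, so a peak near several of them is counted for each.

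In all, 33 of the 274 genes overlapped a peak on either strand in at least 1 list, at 27 places once genes under a common peak were joined, and 241 overlapped none. Of these genes, 16 met a peak on their own strand, 26 on the other strand, and 9 met both in at least 1 list. Their sharing between lists was limited. On the own strand, 6 genes had a peak in S2 cells alone, 7 in late embryos alone and 3 in both S2 cells and early embryos, and no gene with such a peak in late embryos had one in another list. On the other strand, 11 genes had a peak in S2 cells alone, 6 in late embryos alone, 3 in early embryos alone, 3 in S2 cells and early embryos, 2 in S2 cells and late embryos and 1 in both embryo stages. No gene met a peak on either strand in all 3 lists. Of the 12 distinct peaks over snoRNA genes in late embryos, 1 met a same-strand peak of S2 cells (8.33%) and 2 a peak of early embryos (16.7%), against 30.3% and 46.6% of all peaks of that list. Of the 10 peaks of early embryos, 6 met a peak of S2 cells (60%), against 53.9% of all peaks there, and 2 a peak of late embryos (20%), against 59.7%. Of the 21 peaks of S2 cells, 7 met a peak of early embryos (33.3%) and 3 a peak of late embryos (14.3%), against 42.6% and 30.6%.

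**Figure D3:**
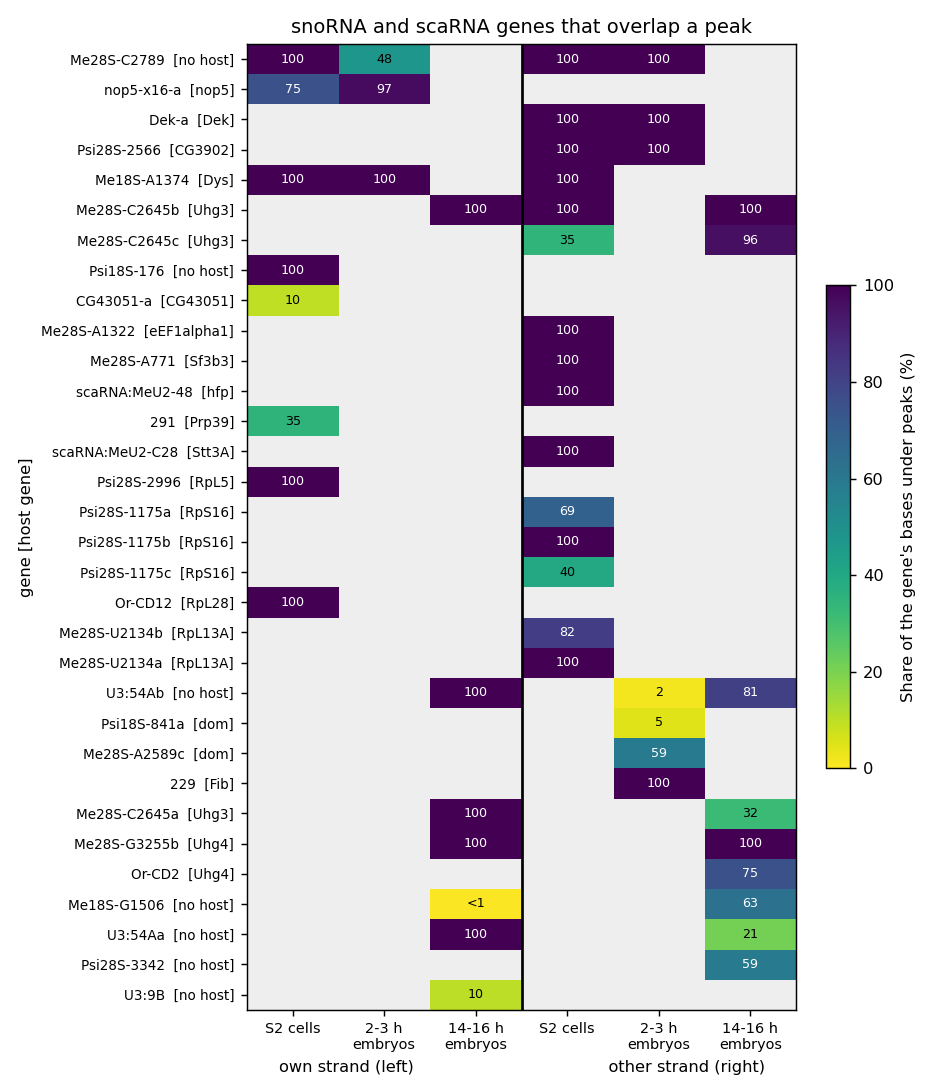
Colour and number give the share of each gene's bases under peaks, in percent, for 32 of the 33 snoRNA and scaRNA genes with any peak (rows, host in brackets), on their own strand (left 3 columns) and on the other strand (right 3 columns). Grey marks no overlap, and no row is filled in all 3 lists of either strand.

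The peaks were wider than the genes. Over the 51 overlaps of a gene with a peak, peak width ran from 247 to 1830 bp and the gene filled a median of 16.5% of its peak, and over 50% of it in 4 overlaps. The gene lay wholly under the peak in 30 overlaps, and the smallest overlap was 1 bp, at snoRNA:Me18S-G1506. A peak over a snoRNA gene therefore mostly marked sequence beyond the gene, and a snoRNA and the RNA of its host or neighbour cannot be told apart as the RNA of the hybrid.

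In more than 1 list, 3 genes had a peak on their own strand, and each had it in S2 cells and early embryos. snoRNA:nop5-x16-a lies in an intron of nop5, which codes for a core protein of box C/D snoRNA particles, and it had 75.2% of its bases under a 453 bp peak in S2 cells and 97.0% under a 523 bp peak in early embryos. Each of these peaks was the only same-strand peak on nop5, and they extended downstream of the snoRNA gene into the neighbouring gene x16 as well, so the peak cannot be assigned to 1 gene. Neither strand of this gene met a peak in late embryos. snoRNA:Me18S-A1374 lies in an exon of at least 1 transcript of Dys, the dystrophin gene of 136204 bp, and was wholly under peaks of 1830 bp in S2 cells and 376 bp in early embryos. Dys as a whole overlapped 29 same-strand peaks in S2 cells, 11 in early embryos and 14 in late embryos, so the gene sat among many peaks of its host. snoRNA:Me28S-C2789 has no host on its strand and lies opposite CG42238. It was wholly under a 1411 bp peak of its strand in S2 cells and 47.7% under a 453 bp peak in early embryos, and peaks of 1058 and 812 bp on the other strand covered it wholly in the same lists.

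The sequences printed above for Me28S-C2789 and Me18S-A1374 hold neither box in the places searched, although both symbols name a methylation guide. Among the 7 methylation guides with a peak on their own strand in any list, 2 held both boxes, against 58 of the 71 without such a peak. Those without both included Me28S-C2789, Me18S-A1374, Me18S-G1506 and Me28S-G3255b. On the other strand, 5 of 13 methylation guides with a peak held both boxes, against 55 of 65 without a peak. For pseudouridine guides, all 8 with a peak on one strand or the other held ACA near the 3′ end. This split was found after the peaks were counted and was not tested.

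The other 6 genes with a same-strand peak in S2 cells had it there alone, and 5 of them are described here. snoRNA:Psi28S-2996 in RpL5 and snoRNA:Or-CD12 in RpL28, both in introns of ribosomal protein genes, were wholly under peaks of 530 and 355 bp. snoRNA:Psi18S-176, which has no host and lies 47 bp from GlyT, was wholly under a 300 bp peak. snoRNA:291 in Prp39 and snoRNA:CG43051-a in CG43051 were 35.1% and 9.52% covered. Ribosomal protein hosts, which held 71 of the 274 snoRNA genes, thus gave 3 of the 9 genes of S2 cells and none of those of either embryo stage.

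In late embryos 6 of the 7 genes with a same-strand peak were U3 genes or lay in Uhg hosts, the non-coding genes whose introns carry snoRNAs, and the other, Me18S-G1506, had no host. snoRNA:U3:54Aa and snoRNA:U3:54Ab, a divergent pair 1886 bp apart on chromosome 2R, were wholly under peaks of 392 and 329 bp, of which the genes made up 53.6% and 63.8%. The snoRNA:U3:9B gene met a 247 bp peak with the last 21 of its bases (9.86%). No U3 gene met a same-strand peak in S2 cells or in early embryos. The other strand of U3:54Aa was 21.0% and that of U3:54Ab 81.0% covered in late embryos, and U3:54Ab had 1.90% covered on the other strand in early embryos. U3:54Aa and U3:54Ab are identical in sequence and U3:9B is 90.6% identical to them, so reads within the first 2 genes cannot be assigned to one of them. The nearest other genes are transfer RNA genes, 235 and 236 bp away, farther than either same-strand peak reached. The other-strand peaks of the pair, in late and in early embryos, did reach these transfer RNA genes. Each such transfer RNA gene lies on the strand opposite the peak, so these peaks do not stand apart from it.

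Along Uhg3 the same-strand peak differed between the embryo stages. In early embryos a 260 bp peak on its strand covered its 5′ end, from 168 bp upstream to 91 bp downstream, and met no snoRNA gene. In late embryos a 940 bp peak ran from 206 bp upstream to 733 bp downstream, over the whole of Me28S-C2645a and Me28S-C2645b, and S2 cells had none on this strand. The late peak also overlapped CG2608 on the same strand, so it cannot be assigned to Uhg3 alone. The early peak also began upstream of Uhg3, so it cannot be assigned to Uhg3 alone either. On the other strand a 264 bp peak of S2 cells and a 486 bp peak of late embryos both lay over Me28S-C2645b and Me28S-C2645c, and the second reached 32.0% of Me28S-C2645a. Me28S-C2645b and c are identical, so reads wholly within them cannot be assigned to one or the other. Copy a is 82.7% identical to them and differs from both in sequence. In Uhg4, Me28S-G3255b was wholly under a 263 bp peak of its strand in late embryos, and a 498 bp peak on the other strand, where Ctu1 lies, covered it and 75% of the orphan snoRNA:Or-CD2. Uhg1 with 16 snoRNA genes and Uhg5 with 11 met 0 peaks on either strand in any list.

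**Figure D4:**
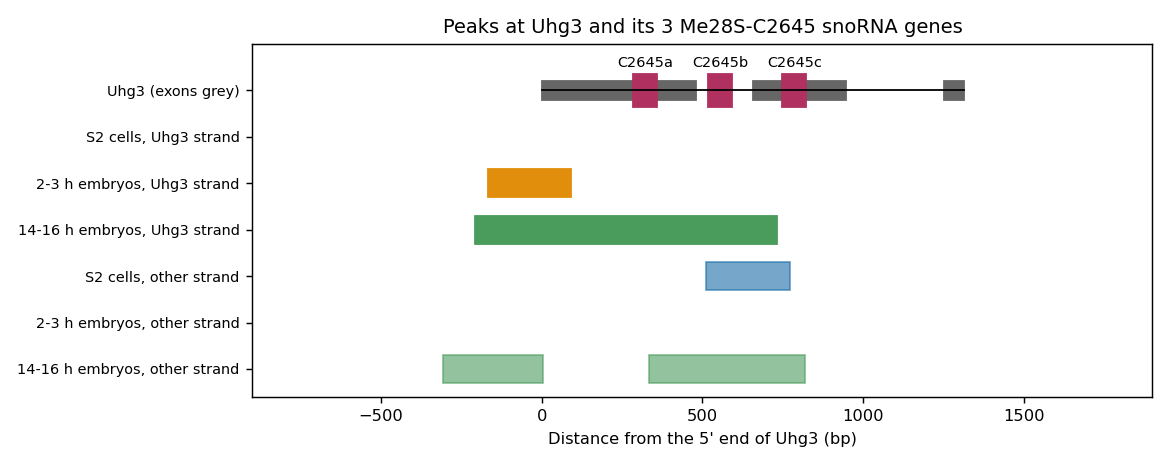
Boxes give the peaks of each list on the strand of Uhg3 and on the other strand, against distance from the 5′ end of Uhg3 in bp, with exons in grey and the 3 snoRNA genes in red. The same-strand peak of early embryos ends 91 bp into the gene, and that of late embryos reaches 733 bp.

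The last same-strand gene of late embryos, snoRNA:Me18S-G1506, touched its peak by 1 bp, while a 781 bp peak on the other strand, within mtgo, covered 62.8% of it. Of the 7 genes with a same-strand peak in this list, 6 also met a peak on the other strand, against 3 of 9 in S2 cells and 1 of 3 in early embryos. In the list of late embryos 44.5% of all peaks overlapped a peak of the other strand by at least 50% of each, against 9.89% in S2 cells and 11.4% in early embryos. Without such peaks the late count fell from 7 to 4, and without genes that have a near-identical copy it fell to 3. The part of copies and of paired peaks in the late result was not tested beyond these counts.

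Of the 26 genes met on the other strand, 16 lay in protein-coding hosts, as did 7 of the 16 met on their own strand. Of all 274 snoRNA genes, 196 lay in such hosts, so neither group with peaks had a greater share there. Dek-a, in an intron of Dek, which codes for a chromatin protein, was wholly under other-strand peaks of 1311 bp in S2 cells and 692 bp in early embryos. Psi28S-2566, a pseudouridine guide in CG3902, was wholly under peaks of 655 and 461 bp in the same lists. In S2 cells 1 peak of 312 bp opposite RpS16 lay over the whole of Psi28S-1175b and parts of Psi28S-1175a and Psi28S-1175c, and 1 peak of 378 bp opposite RpL13A lay over Me28S-U2134a and Me28S-U2134b. Single other-strand peaks of S2 cells covered Me28S-A1322 in eEF1alpha1, a translation elongation factor gene, and Me28S-A771 in Sf3b3, a splicing factor gene. Such peaks also covered the scaRNA genes MeU2-C28 and MeU2-48. In early embryos the other strand of snoRNA:229, in an intron of Fib, was wholly under a 433 bp peak, and in dom 4.86% of Psi18S-841a and 58.9% of Me28S-A2589c were covered. Psi28S-3342, with no host, was 58.5% covered in late embryos. Of the 26 genes met on the other strand in any list, 3 overlapped an annotated gene on that strand, against 19 of all 274 snoRNA genes. Most snoRNA genes, with or without such a peak, thus had no annotated gene opposite them.

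By kind of host, the lists differed. Of the 196 snoRNA genes in protein-coding hosts, 18 met a peak on either strand in S2 cells (9.18%, 95% interval 5.89 to 14.0), 7 in early embryos (3.57%, 1.74 to 7.19) and 0 in late embryos (0%, 0 to 1.92). By the rule of 3 counts, 0 of 196 allows a share of up to 1.53%. Of the 78 in non-coding hosts or without a host, the counts were 4 (5.13%, 2.01 to 12.5), 2 (2.56%, 0.706 to 8.88) and 10 (12.8%, 7.12 to 22.0). The order of S2 cells and late embryos was therefore opposite in these groups, which were formed after the values were seen, and the intervals of S2 cells and late embryos overlapped in the second group. The coding hosts were not without peaks in late embryos, since 27 of 86 had a same-strand peak elsewhere. Over all lists, 7 of the 23 genes without a host (30.4%, 15.6 to 50.9), 5 of 48 in Uhg hosts (10.4%), 13 of 125 in other protein-coding hosts (10.4%), 8 of 71 in ribosomal protein hosts (11.3%) and 0 of 7 in other non-coding hosts met a peak. By class, 13 of 78 methylation guides (16.7%, 10.01 to 26.5), 8 of 106 pseudouridine guides (7.55%, 3.87 to 14.2), 2 of 17 scaRNA genes and 0 of 9 orphan box H/ACA genes did.

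More hosts carried peaks outside their snoRNA genes than over them, the hosts being much longer than the snoRNA genes. Of the 96 hosts, with a median length of 3718 bp, 41 had a same-strand peak that overlapped no snoRNA gene in S2 cells (42.7%, 95% interval 33.3 to 52.7), 35 in early embryos (36.5%, 27.5 to 46.4) and 28 in late embryos (29.2%, 21.0 to 38.9), and 48 had one in at least 1 list. A same-strand peak anywhere was found on 46.9%, 37.5% and 31.3% of hosts, against 26.9%, 23.4% and 21.8% of all genes, which have a shorter median length, and one over a snoRNA gene on 7, 2 and 2 hosts. Kinds of host differed in this, with 42 of 58 other protein-coding hosts (72.4%, 59.8 to 82.2), 4 of 28 ribosomal protein hosts (14.3%, 5.70 to 31.5) and 1 of 7 Uhg hosts met elsewhere in any list. Their median lengths were 5755.5, 1765.5 and 1439 bp, and the part of length in this order was not tested. Of the 251 snoRNA genes with a host, 98 in S2 cells, 70 in early embryos and 40 in late embryos had no peak of their own while the host had one elsewhere, whereas 3, 1 and 0 had both.

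Within the hosts, snoRNA genes were the least covered sequence on the host strand over all hosts. In S2 cells peaks lay over 1.45% of their bases, 9.21% of the rest of the introns and 14.1% of the exons. In early embryos the shares were 0.543%, 5.86% and 11.2%, and in late embryos 0.759%, 8.29% and 5.11%. A few long hosts such as Dys hold most intron bases, so the hosts of at most 20 kb were also taken alone. There the shares were 1.36%, 3.26% and 8.37% in S2 cells, 0.354%, 2.49% and 6.68% in early embryos and 0.839%, 2.78% and 2.47% in late embryos. By kind of host, snoRNA genes and introns both stood at 0% in Uhg hosts of S2 cells and of early embryos. They also both stood at 0% in other non-coding hosts of S2 cells. In 2 cases the order of snoRNA genes and introns was reversed. Ribosomal protein hosts in S2 cells had 3.09% of snoRNA bases, 2.57% of other intron bases and 5.65% of exon bases covered, and Uhg hosts in late embryos had 5.78%, 3.69% and 12.8%. On the other strand of hosts of at most 20 kb in S2 cells, snoRNA genes were covered over 4.81% of bases, introns over 4.40% and exons over 2.91%. In the other lists the snoRNA share there was below that of introns, at 2.33% against 4.50% in early and 1.29% against 3.37% in late embryos. Over all hosts it was below that of introns in each list, with 4.57% against 10.7% in S2 cells.

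**Figure D5:**
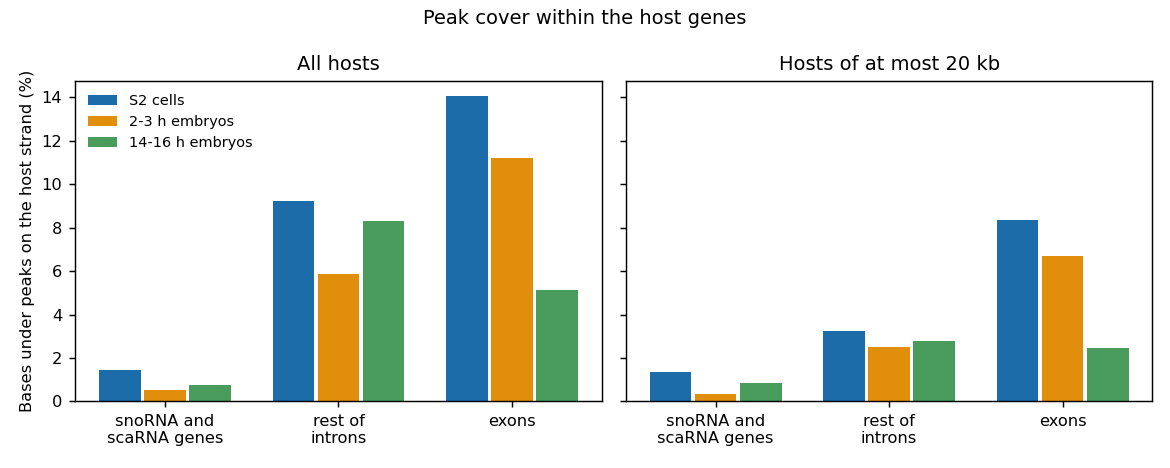
Bars give the percentage of bases under peaks on the host's strand for snoRNA and scaRNA genes, the rest of the introns and the exons of all 96 hosts (left) and of hosts of at most 20 kb (right), in each list. snoRNA bars run from 0.354% to 1.45%, below both other bars of the same list in each panel.

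Hosts with many snoRNA genes met few peaks over them. The 14 hosts with at least 5 snoRNA genes held 129 of them, and 2 of these met a peak on their own strand in any list, while 7 met one on the other strand. Of all 274 snoRNA genes, 16 met one on their own strand and 26 on the other. Arpc2, which codes for a subunit of the actin-nucleating Arp2/3 complex, held 17 and had 1 same-strand peak, in S2 cells, away from all of them. dom, which codes for a chromatin remodelling ATPase, held 15 and had 2, 1 and 0 same-strand peaks in S2 cells, early and late embryos, none over a snoRNA gene. kra (8 snoRNA genes) had 1 peak in S2 cells and 1 in early embryos, and Hrb98DE (7), which codes for an RNA-binding protein of the hnRNP family, had 1 in S2 cells. RpS5a (14), which codes for a ribosomal protein of the small subunit, had no same-strand peak in any list, and RpS7 (7) had no peak on either strand.

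Base composition of the genes with and without peaks overlapped. The median GC content was 45.9% (quartiles 40.2 and 49.6) for the 16 genes with a same-strand peak, 37.8% (34.4 and 49.03) for the 26 with an other-strand peak and 39.1% (34.5 and 44.6) for the 241 with none. A run of 8 T on the gene's strand, within the gene or 200 bp on either side, was found at 5 of 16 (31.3%), 7 of 26 (26.9%) and 24 of 241 (9.96%), and at 12.0% of all 274. A run of 8 A was found at 1, 0 and 16 of them. The runs are matches of letters, and 9 genes belong to both of the sets with peaks.

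Genes of the proteins that act with snoRNAs were 381 to 11467 bp long, and the shares of all genes with a same-strand peak were 26.9%, 23.4% and 21.8%. Of 12 such genes, 5 had a same-strand peak in S2 cells, 6 in early embryos and 2 in late embryos, and 1, 3 and 1 had one on the other strand. Nop56, a core protein of box C/D particles, had 1 same-strand peak in each list, starting 1574, 1614 and 1620 bp into the gene. Nop60B, the pseudouridine synthase of box H/ACA particles and host of 7 snoRNA genes without peaks, had a peak at its 5′ end in S2 cells and in early embryos, and in late embryos 2 peaks that began 2769 and 9349 bp into the gene. nop5, Nopp140, a nucleolar chaperone of snoRNA particles, and rept, an ATPase of their assembly, each had 1 in S2 cells and in early embryos and none in late embryos. Fib, the methyltransferase of box C/D particles, had 1 in early embryos only. The box C/D protein gene hoip, the box H/ACA protein genes NHP2, Nop10 and Gar1, the Cajal body gene coil and the assembly ATPase gene pont had no peak on either strand in any list.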

How the data were processed

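Reads were trimmed and mapped by the authors with bowtie2 (dm6). Alignments were split by strand, and MACS2 called peaks on the ssDRIP replicates jointly. The paper states that peaks overlapping almost fully between the strands were left out of its later analyses. Whether the deposited lists still hold such peaks was not determined here. The sources differ on whether the RNase H1-treated sample alone or the input as well served as control. The deposited lists hold peak positions, strands and lengths in bp, and no score, so depth is unknown. Lists held 28464, 22581 and 28961 peaks (S2 cells, early and late embryos) with median widths of 400, 391 and 387 bp, and covered 5.27%, 3.86% and 4.63% of all bases of both strands. The paper reports the same number for early embryos, other numbers for S2 cells and late embryos, and a wider median. The lists used here may therefore differ from those the paper analysed.

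Genes came from RefSeq (FlyBase release 6.54) on the chromosomes with peaks, and all 274 snoRNA and scaRNA genes had the same coordinates in Ensembl. Positions count from 1, and the strand of a peak is that given in the list. At least 1 bp of overlap counted. The shortest containing gene was the host, and 12 genes had 2. The rule named genes with peaks in at least 2 lists, their hosts, the 8 hosts with most members and 12 snoRNA protein genes. Other genes with peaks were named after their values were seen. A gene with peaks enters the counts and is not reported by name here. Members and lists were chosen with earlier results of these data known. Near-identical copies (33 genes) had at least 90% identity over the whole of the shorter gene. The programs passed 4 of 4 checks on simulated peaks. Python 3.11.15, NumPy 2.4.6, SciPy 1.17.1, matplotlib 3.10.9 and edlib 1.3.9.post1 were used.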

Additional observations from a re-analysis of the deposited data

How the results depend on the processing

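Of 60 alternatives over 12 results, 34 left the value within 1.5 times (counts) or within its 95% interval over bases (shares) and 26 did not. Counting a peak within 250 bp, the genes met on their own strand were 18, 10 and 14 in S2 cells, early and late embryos, and on the other strand 13 in early and 16 in late embryos. With the whole gene under 1 peak, the early counts were 1 on the own and 4 on the other strand, and the late count on the other strand was 2. With peaks wider than the median of their list, the own-strand counts were 5 in S2 cells and 4 in late embryos, the other-strand count in S2 cells was 7, and the own-strand base shares were 1.43%, 0.510% and 1.09%. Without peaks paired across strands, the late counts were 4 and 5 and the base shares 1.76%, 0.501% and 1.15%. Without overlapping or near-identical genes (239 left), the late counts were 3 and 5 and the base shares 2.54% in S2 cells and 0.537% in late embryos. With 100 bp added on either side the base shares were 2.56%, 0.967% and 2.30%. Counts of hosts with a peak elsewhere stayed within 1.5 times under all 4 of their alternatives. Each shift follows from the peaks or genes its rule adds or removes.

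No paired analysis was possible because each list pools its replicates, and for the same reason no replicate was left out. The lists give neither peak height nor depth, and a gene without a peak is not shown to lack an R-loop.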
